A study of Arabidopsis thaliana with 6 samples.

Results

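ZW9 (AT1G58270) and AT1G65370 are a pair of Arabidopsis thaliana genes whose proteins belong to the TRAF-like family. They were chosen by their measured rise over wild type, which was strong in seedlings that overexpress a rice topoisomerase VI subunit. Each gene is represented by 1 probe set that names no other gene, 256021_at for ZW9 and 264166_at for AT1G65370, so the account rests on 2 of the 22746 probe sets of the array. Because the rise over wild type was the basis of the choice, the values against wild type are given as a description with no test.

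All seedlings were 10 days old, grown under continuous light on agar with 2% sucrose, and RNA was taken from whole light-grown seedlings. The 3 groups had 2 arrays each: wild type, transgenic seedlings overexpressing the rice cDNA of OsTOP6A3 (the name OEA3L5 in the labels), and transgenic seedlings overexpressing the rice cDNA of OsTOP6B (OETOP6B). The labels give the Columbia ecotype for 5 arrays and none for wild-type replicate 1. They give 1 name per overexpressor, no promoter and no vector control, so an effect of a subunit and one of the line that carries it cannot be told apart. The labels call the replicates biological, and no rice transcript was measured here.

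The TRAF domain is named after tumour necrosis factor receptor-associated factors of animals, and its C-terminal part, the MATH (meprin and TRAF-C homology) domain, is a protein-binding fold. Plants carry many genes with such a domain. In Arabidopsis the BPM proteins join it to a BTB domain and bring targets to cullin-based ubiquitin ligases, the SINAT proteins join a TRAF-like fold to a RING ligase domain, and MUSE13 and MUSE14 act in the turnover of immune receptors. Many others, among them ZW9 and AT1G65370, are known as stand-alone TRAF-like proteins.

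The arrays differed in overall brightness, with median deposited intensities from 66.2 to 103.5, both extremes being OsTOP6B arrays. Across probe sets, replicate arrays correlated at Pearson's r of 0.985 to 0.991, overexpressor arrays of different lines at 0.984 to 0.990, and wild type with overexpressors at 0.966 to 0.974. Among markers of green tissue 5 of 6 listed genes had a probe set annotated to exactly 1 gene. RCA, which encodes Rubisco activase, read between 6962 and 10082 deposited units. All 3 root markers had such a probe set, and none of the marker values was 0. The 7 listed seed, floral and pollen markers had none in the annotation used, which gives 8730 probe sets no gene. After scaling, the summed root-marker intensity was 6318 to 6738 in wild type, 7136 to 7590 with OsTOP6A3 and 6910 to 8126 with OsTOP6B. The summed green-marker intensity was 25171 to 25972, 23992 to 24188 and 21391 to 25886 in the same order. Most of the root sum came from PYK10, which did not pass. Its limma difference from wild type was 0.16 ± 0.14 (SE, log2, adjusted p = 0.524) with OsTOP6A3 and 0.15 ± 0.14 (adjusted p = 0.493) with OsTOP6B. In limma the root-hair expansin gene EXPA7 rose by 1.23 ± 0.16 (SE, log2, adjusted p = 0.00357) with OsTOP6A3 and by 1.73 ± 0.16 (adjusted p = 0.00077) with OsTOP6B. Of the 3 root markers 1 rose with OsTOP6A3 and 2 rose with OsTOP6B, and of the 5 green markers 1 rose and 1 fell in each comparison. The marker that fell, PSAN, lost its call on the deposited scale, with -0.35 (adjusted p = 0.394) and -0.69 (adjusted p = 0.106). Without wild-type replicate 1 the calls of EXPA18 with OsTOP6B (adjusted p = 0.0825) and of the green markers LHCB4.2 and PSAN in both comparisons were lost (adjusted p from 0.0713 to 0.149), and those of the green markers were also lost without wild-type replicate 2 (0.0677 to 0.121). The OsTOP6A3 calls of LHCB4.2 and PSAN were lost without either OsTOP6A3 array too, and the OsTOP6B call of LHCB4.2 without OsTOP6B replicate 2 (adjusted p = 0.0508). The part of marker levels in the values below was not tested. In whole seedlings, more cells of a type and more RNA per cell cannot be told apart.

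ZW9 was dim in wild type and bright in both overexpressors. The wild-type arrays read 23.8 and 38.8 deposited intensity units, the OsTOP6A3 arrays 910.8 and 871.9, and the OsTOP6B arrays 1092.2 and 506.3. Every overexpressor array lay above both wild-type arrays, and the lowest of them was OsTOP6B replicate 2, which was also the array with the lowest median. That replicate pair differed 2.16-fold for ZW9, while the medians of the arrays differed 1.56-fold.

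Because the arrays differed in brightness, values were turned into log2(intensity + 16) and quantile normalized. On this scale the wild-type mean of ZW9 was 5.69 ± 0.35 (SD, n = 2), that of OsTOP6A3 9.64 ± 0.01 and that of OsTOP6B 9.55 ± 0.44. The difference from wild type was 3.95 ± 0.23 (SE) or 15.5-fold with OsTOP6A3, and 3.87 ± 0.23 or 14.6-fold with OsTOP6B. The lowest overexpressor array stood 3.31 above the highest wild-type array on the log2 scale. Among the 17059 probe sets tested, 7 had a wider gap of this kind.

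AT1G65370 followed the same order of groups from a wild-type level close to the bottom of the scale. Deposited units were 6.8 and 1.8 for the wild-type arrays, 156.2 and 128.2 for OsTOP6A3, and 226.1 and 116.1 for OsTOP6B. Here too no overexpressor array overlapped with wild type, and OsTOP6B replicate 1 was the brightest array. Normalized log2 values averaged 4.36 ± 0.26 (SD, n = 2), 7.13 ± 0.14 and 7.46 ± 0.23 in wild type, OsTOP6A3 and OsTOP6B seedlings. An intensity of 0 would read 4 on this scale, so the wild-type arrays held little signal above the floor.

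With the constant of 16, the difference of AT1G65370 from wild type was 2.77 ± 0.18 (SE) with OsTOP6A3 and 3.10 ± 0.18 with OsTOP6B. Since the wild-type arrays held so little signal, the size of this difference is set largely by that constant, and no fold is given. The gap between the lowest overexpressor and the highest wild-type array was 2.48 on the log2 scale, and 28 tested probe sets had a wider one. The filter on low values asked for a 6-array mean of at least 4.97. AT1G65370 passed this filter through its overexpressor arrays, since its wild-type mean lay below that value, whereas ZW9 was above it in wild type as well. All arrays of both overexpressors were above both wild-type arrays for 19.7% of all tested probe sets, and by the limma test 5.52% of them rose with OsTOP6A3 and 7.91% with OsTOP6B.

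**Figure D1:**
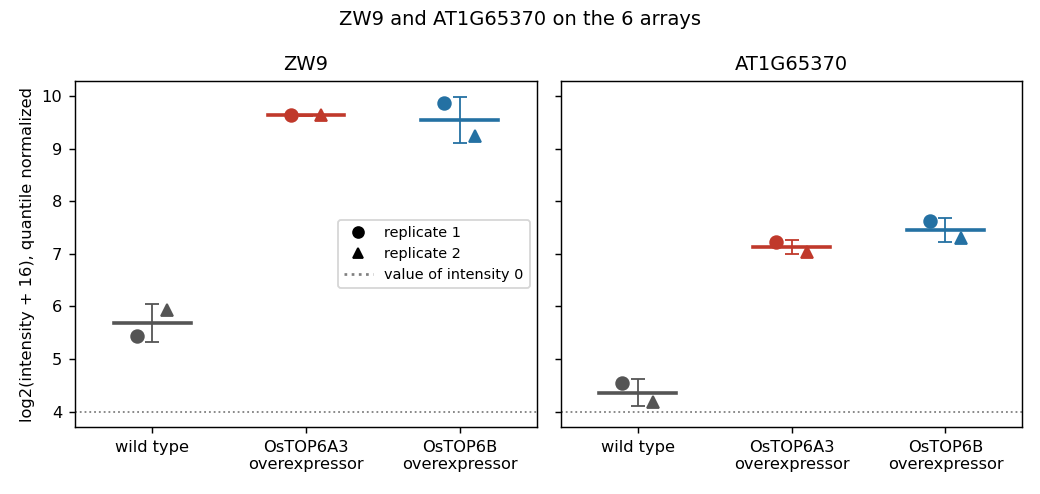
Quantile-normalized log2(intensity + 16) of ZW9 (left) and AT1G65370 (right) by group. Circles and triangles are replicates 1 and 2, horizontal bars are group means, error bars are SDs (n = 2), and the dotted line is the value of an intensity of 0. For both genes the 4 overexpressor arrays lie above both wild-type arrays, and the wild-type points of AT1G65370 lie near the dotted line.

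The position of each probe set within its own array does not depend on scaling between arrays. ZW9 was brighter than 32.1% and 39.6% of probe sets on the wild-type arrays, and than 88.4% to 92.8% of them on the overexpressor arrays. AT1G65370 was brighter than 15.5% and 7.41% of probe sets on the wild-type arrays and than 56.8% to 66.9% on the overexpressor arrays. These ranks describe the rise in the deposited values. Quantile normalization keeps the order of probe sets within an array, so the ranks are not a separate check on the rise.

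How large the rises were depended on the constant added before taking logarithms, most of all for AT1G65370. With 1 in place of 16, the log2 difference of AT1G65370 was 4.62 with OsTOP6A3 and 4.99 with OsTOP6B, and with 64 it was 1.45 and 1.71. ZW9 had 4.44 and 4.35 with 1, and 3.08 and 2.999 with 64. With 16 the difference of ZW9 exceeded that of AT1G65370 by 1.19 with OsTOP6A3 and by 0.77 with OsTOP6B, but with 1 that of AT1G65370 was the larger. Which of the genes rose more is therefore not settled by these values. Both genes stayed above wild type in both overexpressors under all 13 alternatives, which is a description only. The filter, the eBayes options and the replicate block cannot change these differences. The other alternatives reuse the values for which the genes were chosen.

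**Figure D2:**
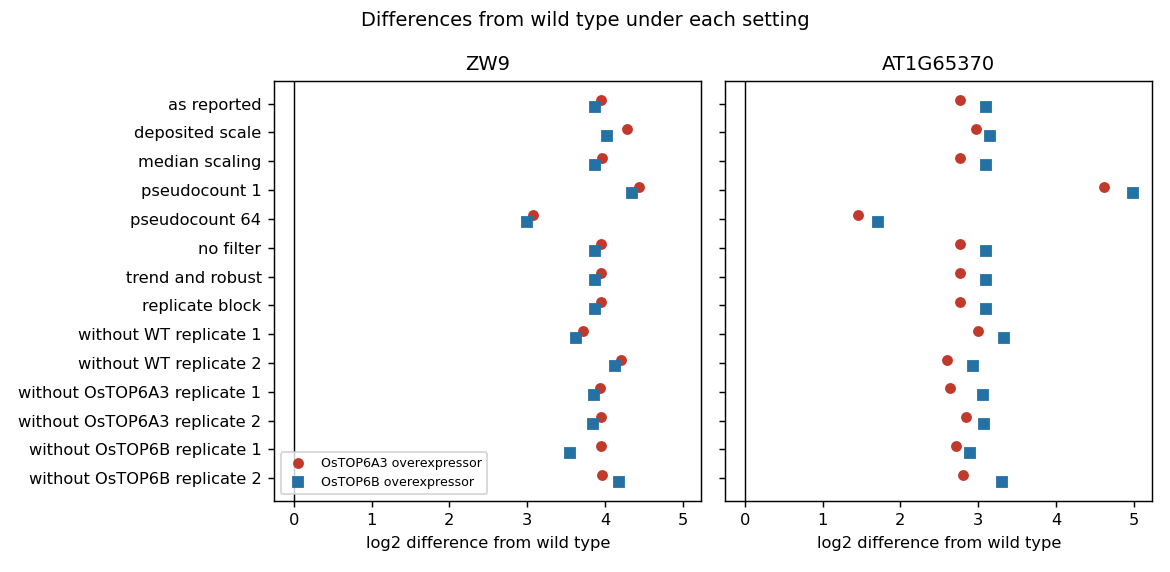
Log2 difference from wild type of ZW9 (left) and AT1G65370 (right) as reported and under the 13 alternatives, for OsTOP6A3 (circles) and OsTOP6B (squares) overexpressors. All points lie to the right of 0, on arrays that also served to choose the genes, and some settings cannot move them. The added constant moves AT1G65370 from 1.45 to 4.62 with OsTOP6A3 and from 1.71 to 4.99 with OsTOP6B. Leaving out single arrays moves it between 2.60 and 2.99 with OsTOP6A3 and between 2.89 and 3.32 with OsTOP6B.

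The replicates of ZW9 spread more than those of most probe sets in wild type and with OsTOP6B. The wild-type arrays differed by 0.50 on the log2 scale and the OsTOP6B arrays by 0.62, against medians of 0.14 and 0.19 over all tested probe sets. With OsTOP6A3 they differed by 0.01, against a median of 0.12. For AT1G65370 the replicate differences were 0.37, 0.19 and 0.32 in wild type, OsTOP6A3 and OsTOP6B. Wild-type replicate 2 was the higher of its pair for ZW9 and the lower for AT1G65370, whose wild-type readings lay near the floor. Each of these replicate differences was smaller than the difference from wild type. The genes were chosen for that difference, so this is a description only.

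The comparison of the overexpressors with each other was not used to choose the genes and could be tested. It asks whether the subunit lines differ in these transcripts. For ZW9 the OsTOP6A3 minus OsTOP6B difference was 0.09 ± 0.23 (SE), with a 95% interval from -0.46 to 0.63 and a limma adjusted p of 0.943. For AT1G65370 it was -0.33 ± 0.18, with an interval from -0.75 to 0.08 and an adjusted p of 0.709. Neither difference passed, and the intervals, which carry no correction for multiple tests, leave room for a modest difference between the lines in either gene. After scaling AT1G65370 read 7.22 and 7.03 with OsTOP6A3, and 7.62 and 7.30 with OsTOP6B. In deposited units the lines overlapped, with OsTOP6B replicate 2, at 116.1, below both OsTOP6A3 arrays. How many probe sets separate the lines after scaling was not counted, so the order of these arrays supports no difference between the lines. The AT1G65370 difference ran from -0.50 to -0.17 under the 13 alternatives. These reuse the same arrays, and the filter, the eBayes options and the replicate block cannot change the difference. They therefore support no direction. For ZW9 the OsTOP6A3 arrays lay between the OsTOP6B arrays.

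The sign of the small ZW9 difference rested on the OsTOP6B arrays: it was 0.40 without OsTOP6B replicate 1 and -0.22 without OsTOP6B replicate 2, with adjusted p of 0.410 and 0.877. In the whole comparison 0 of 17059 probe sets (0% called) passed in limma and 1235 had an unadjusted p under 0.05. On the deposited scale 5 passed, and 1 passed with the constant of 64 or with an intensity trend and robust variances.

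Other stand-alone TRAF-like genes were listed by locus from general knowledge of the family, to see how the relatives of ZW9 and AT1G65370 behaved. The list was made when the values were already at hand. Of 58 listed loci 17 had a probe set with exactly 1 gene, and 8 of these passed the filter. The remaining 9 read between 0.6 and 21.4 deposited units on every array. Of the 8 tested, 3 rose and 0 fell with OsTOP6A3, where 5.52% of all probe sets rose and 4.17% fell. With OsTOP6B 4 rose and 0 fell, where 7.91% rose and 6.98% fell. Their median difference was 0.31 with OsTOP6A3 and 0.41 with OsTOP6B, against -0.02 and -0.02 over all tested probe sets. AT3G58280 passed the filter only through its overexpressor arrays, with a wild-type mean of 4.90, and its value is one of those that set the OsTOP6A3 median, so these medians support no direction. Both comparisons share the wild-type arrays.

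AT5G26260 showed the largest rise among these relatives. Its wild-type arrays read 107.9 and 64.1 deposited units, against 1131.4 and 692.9 for OsTOP6A3 and 1217.9 and 643.8 for OsTOP6B. All overexpressor arrays were above both wild-type arrays, in deposited units and after scaling. After scaling this held for 19.7% of all tested probe sets. Replicate 1 was the brighter of each pair. AT5G26260 rose by 2.80 ± 0.29 (log2, 6.97-fold, limma adjusted p = 0.00141) with OsTOP6A3 and by 2.97 ± 0.29 (7.83-fold, adjusted p = 0.00101) with OsTOP6B. The adjusted p under the 13 alternatives reached at most 0.0111 and 0.0132.

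AT5G26280, with 2 protein-coding genes between it and AT5G26260 on chromosome 5, rose less. Its wild-type arrays read 544.9 and 588.8, those with OsTOP6A3 1600.7 and 1487.0, and those with OsTOP6B 1941.4 and 885.8. All overexpressor arrays were above wild type, as for 19.7% of all tested probe sets after scaling, with OsTOP6B replicate 2 the closest to it. The rise was 1.01 ± 0.21 (adjusted p = 0.0249) with OsTOP6A3 and 0.96 ± 0.21 (adjusted p = 0.0231) with OsTOP6B. AT5G26260 and AT5G26280 are related in sequence family and position, and whether their probes respond to each other's transcripts was not tested.

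AT3G28220 read 24.6 and 34.6 without a transgene, 91.2 and 126.7 with OsTOP6A3, and 78.4 and 86.0 with OsTOP6B. Its overexpressor arrays too were above wild type, as for 19.7% of all tested probe sets after scaling. In limma AT3G28220 rose by 1.15 ± 0.25 (adjusted p = 0.0287) with OsTOP6A3 and by 0.96 ± 0.25 (adjusted p = 0.0404) with OsTOP6B. With the constant of 64 these values were 0.70 and 0.57. AT3G20370 rose with OsTOP6B by 0.60 ± 0.15 (adjusted p = 0.0375), and its value with OsTOP6A3 was 0.26 ± 0.15 (adjusted p = 0.320). The difference between the lines, -0.33 ± 0.15, did not pass either (adjusted p = 0.677).

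The calls of AT5G26280, AT3G28220 and AT3G20370 were less stable than that of AT5G26260. With no filter or with the constant of 1, the count of rises was 1 in each comparison. It was also 1 without wild-type replicate 1 or wild-type replicate 2, and for OsTOP6A3 without OsTOP6A3 replicate 1 or OsTOP6A3 replicate 2. For OsTOP6B it was 2 without OsTOP6B replicate 2, and 3 without OsTOP6B replicate 1 or either OsTOP6A3 array. Without OsTOP6B replicate 1, AT3G58200 passed as a fall at -1.30 (adjusted p = 0.0233), whereas with all arrays it had -0.66 ± 0.39 (adjusted p = 0.294). AT3G58200 read 34.6 and 0.9 on the OsTOP6B arrays.

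The other tested relatives, AT3G17380, AT3G58280 and AT4G00780, did not pass. AT4G00780, which read 986.5 to 1020.6 in wild type, had 0.07 ± 0.13 with OsTOP6A3 and 0.17 ± 0.13 with OsTOP6B. AT3G17380 had 0.23 in both comparisons, and AT3G58280 had 0.36 and 0.20.

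**Figure D3:**
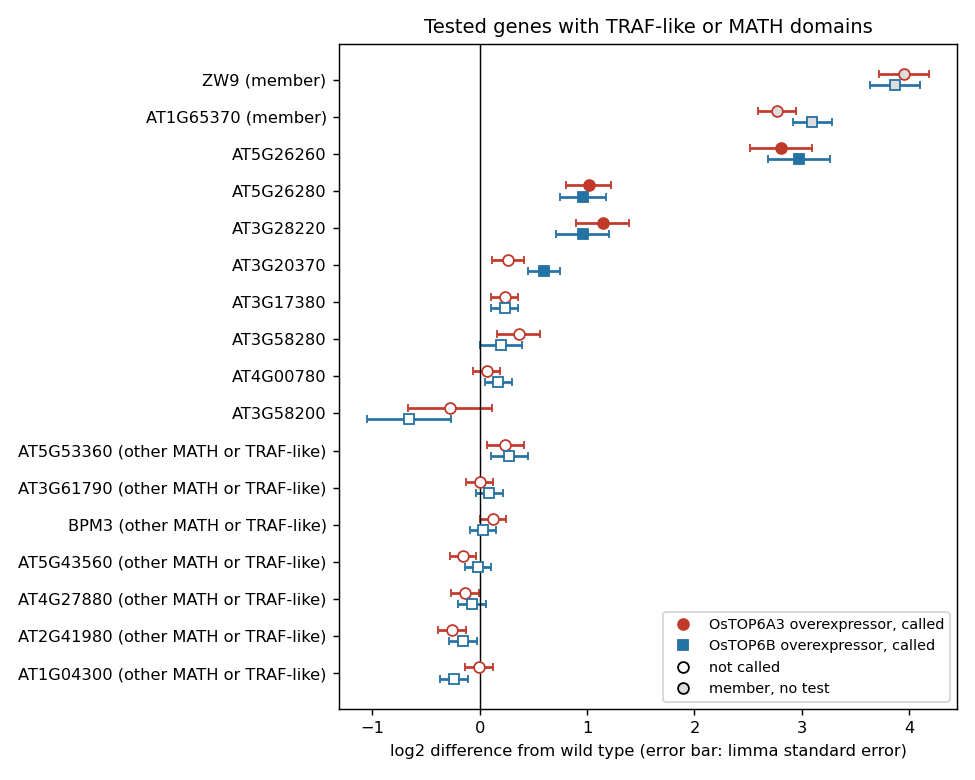
Log2 difference from wild type of the 17 tested genes with a TRAF-like or MATH domain, with limma standard errors, for OsTOP6A3 (circles) and OsTOP6B (squares) overexpressors. Filled symbols passed at an adjusted p under 0.05, open symbols did not, and grey symbols are ZW9 and AT1G65370, which were not tested. AT5G26260 stands near AT1G65370 with the added constant of 16 plotted here, while with 1 it had 2.99 and 3.16 against 4.62 and 4.99, and the genes of the BPM, SINAT and MUSE groups stand around 0.

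Among the better-known MATH and TRAF-like genes 0 passed in either comparison. This list held 16 genes, of which 7 had a probe set with exactly 1 gene and all 7 were tested. Over all probe sets 5.52% rose and 4.17% fell with OsTOP6A3, and 7.91% rose and 6.98% fell with OsTOP6B, so a count of 0 among 7 is close to the background. Their differences ran from -0.26 to 0.24 with OsTOP6A3 and from -0.24 to 0.27 with OsTOP6B, with medians of -0.01 and -0.02. BPM3, a MATH-BTB adaptor, had 0.12 ± 0.12 and 0.03 ± 0.12. The SINAT genes were measured for 4 of 5 members, with AT2G41980 the lowest at -0.26 ± 0.13 with OsTOP6A3 (adjusted p = 0.259) and AT5G53360 the highest at 0.27 ± 0.17 with OsTOP6B (adjusted p = 0.319). Of the MUSE genes, which both had a probe set, AT1G04300 had -0.01 and -0.24 and AT5G43560 had -0.15 and -0.02. In the comparison of the lines AT1G04300 had the largest value of the list, 0.23 ± 0.13 (adjusted p = 0.723). The ubiquitin protease genes UBP12 and UBP13, RTM3, which acts against virus movement, and 12 partners and targets of MATH proteins had no such probe set.

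ZW9 and AT1G65370 both lie on chromosome 1, with 668 protein-coding genes between them in the reference annotation. Of the 20 protein-coding genes nearest to each, 10 on either side, 2 had a probe set with exactly 1 gene, and 1 of those 2 was tested. Near ZW9 this was AT1G58230, which had -0.02 ± 0.16 with OsTOP6A3 and -0.15 ± 0.16 with OsTOP6B. ZW2, the other measured neighbour of ZW9, read 1.3 to 22.9 deposited units and lay under the filter. Near AT1G65370 the MADS-box gene AGL23, directly beside it, read 3.8 to 15.2 and lay under the filter. GLC, the 8th gene on the far side, had 0.55 ± 0.17 (adjusted p = 0.0917) and 0.22 ± 0.17 (adjusted p = 0.430) with its brighter probe set, while its other probe set was under the filter. On the deposited scale the OsTOP6A3 value of GLC was 0.82 and passed (adjusted p = 0.0338). So few neighbours had a probe set annotated to exactly 1 gene that the values do not describe the neighbourhoods as a whole.

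Probe sets most like each gene were found by the root mean square difference between log2 profiles over the 6 arrays, each profile centred on its own mean, among 9435 tested probe sets with exactly 1 gene. This measure favours probe sets that rise by a similar amount and is given as a description for the added constant of 16 alone. For ZW9 the nearest were AT3G43740 at 0.19, AT2G43535 at 0.30, AT2G14460 at 0.35, AT2G04050, a MATE efflux gene, at 0.39 and AT1G23960 at 0.45. AT3G43740 read 1.2 and 6.7 in wild type, 256.0 and 331.6 with OsTOP6A3, and 363.3 and 208.9 with OsTOP6B. AT1G65370 stood in position 11 from ZW9 with this constant, at 0.56. With constants of 1 and 64, tried after the data had been seen, 2 and 4 of the 5 probe sets were again among the first 5.

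For AT1G65370, with the constant of 16, the nearest probe set was that of another TRAF-like gene, AT5G26260, at 0.18. This did not hold with the other constants: AT5G26260 stood in position 25 with 1, where AT1G65370 had the larger differences from wild type, and in position 232 with 64, where it had the smaller ones. With 16 it was followed by AT5G05750 at 0.18, the cytochrome P450 gene CYP71B34 at 0.24, AT4G20480 at 0.25 and AT5G44580 at 0.25. AT5G05750 read 24.4 and 23.6 in wild type, 276.3 and 265.6 with OsTOP6A3, and 385.3 and 256.2 with OsTOP6B, so its replicates lay closer together than those of AT1G65370 in wild type. Of these 5 probe sets, 1 was among the first 5 with a constant of 1 and 0 with 64, so which genes are most like AT1G65370 is not settled by these data.

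**Figure D4:**
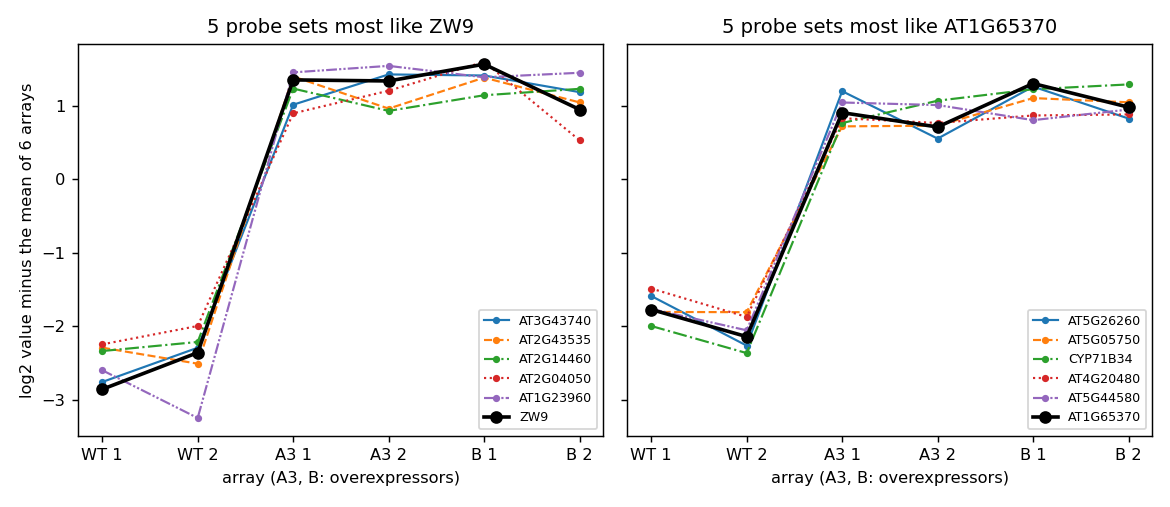
Centred log2 values on the 6 arrays of ZW9 (left, black) and AT1G65370 (right, black) with the 5 probe sets most like each when 16 is added before taking logarithms. Lines join arrays to show profiles and carry no order. All 12 profiles step up between the wild-type and the overexpressor arrays. AT2G04050 falls furthest below ZW9 on OsTOP6B replicate 2, and AT5G26260 follows AT1G65370 down on replicate 2 of each group.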

How the data were processed

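RNA of 6 samples was hybridised to 1-colour Affymetrix arrays, per the labels with biotin. The deposited table holds 1 linear intensity per probe set and array. How the authors summarised probes and scaled arrays is not given in the sources used here. All columns were assigned to an array (0 left over).

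After 64 control probe sets were removed, quartiles differed between arrays by up to 0.54 on the log2 scale, above the limit of 0.1 for leaving them as deposited. Values were therefore turned into log2(intensity + 16) and quantile normalized. Probe sets with a mean at or above the 25th percentile were tested, 17059 in all, and 5687 were left out. The 6 arrays were fitted together with limma 3.58.1 (R 4.3.3; lmFit, eBayes, 3 residual degrees of freedom), without a block. Tests are two-sided, adjusted by Benjamini-Hochberg over all tested probe sets, and passed at adjusted p under 0.05. The fit was tested on simulated data. Precision is limited by how few arrays there are. Each p-value sets a difference against the spread between replicate arrays, pooled over the groups and adjusted by eBayes towards that of all tested probe sets.

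Genes were named from the platform's annotation, in which 8730 probe sets have no gene and 503 several, and TAIR10.1 gene tables gave symbols and neighbours. Members and lists were chosen with earlier results of these data known. The list of 58 stand-alone TRAF-like loci was added from general knowledge of the family when the values were already at hand. Named genes were ZW9 and AT1G65370, list genes that passed or differed most, and the 5 most alike probe sets of each. BPM3, AT3G17380, AT3G58280, AT4G00780 and the few measured neighbours did not fall under this rule and were named after their values were seen. Alternatives were scaling, added constant, filter, eBayes options, a replicate block and leaving out each array.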

Additional observations from a re-analysis of the deposited data

How the results depend on the processing

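ZW9 and AT1G65370 stayed above wild type in both overexpressors under all 13 alternatives. The filter, the eBayes options and the replicate block cannot change these differences, and the other alternatives reuse the values that chose the genes. With OsTOP6A3, ZW9 had 4.28 on the deposited scale, 4.44 with a constant of 1 and 3.08 with 64, and 3.72 to 4.21 when single arrays were left out. With OsTOP6B it had 4.35, 2.999 and 3.55 to 4.18 for the constants and the left-out arrays. AT1G65370 had 4.62 and 4.99 with a constant of 1, 1.45 and 1.71 with 64, and 2.60 to 2.99 and 2.89 to 3.32 without single arrays. Between the lines ZW9 ran from -0.22 to 0.40 without single arrays, turning sign without OsTOP6B replicate 2, and did not pass. The cause was not tested.

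Of all probe sets 1652 passed with OsTOP6A3 and 2540 with OsTOP6B. A constant of 1 gave 1100 for OsTOP6A3, no filter, with more probe sets tested, gave 1002 and 1608, and the deposited scale gave 1460 for OsTOP6B. The share of rises among calls was 92.1% and 84.5% on the deposited scale against 57.0% and 53.1%, and the median of all differences there was 0.34 and 0.18. Left-out arrays gave 560 to 2017 and 1054 to 2210. Between the lines the 0 became 5 on the deposited scale, 1 with 64 and 1 with trend and robust variances.

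Whether replicate numbers pair the samples was not settled. After quantile normalization, replicate 1 minus 2 correlated between groups at -0.05 to 0.02 over all tested probe sets, which cannot speak for single genes. With the replicate block 1452 and 2161 probe sets passed. The block cannot change the members' differences, because every group holds replicates 1 and 2. The position of ZW9 among the probe sets most like AT1G65370 was 48 with a constant of 16, 13 with 1 and 2782 with 64, settings added after the data had been seen.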
